A study of Mus musculus x Mus spretus with 8 samples.

Results

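Costimulatory and checkpoint genes encode the surface and secreted proteins that raise or lower the response of T cells, natural killer cells and macrophages to the cells they touch. A T cell reads its antigen receptor together with signals from the B7 family and the TNF receptor superfamily. Some of these pairs amplify the response and others brake it, and macrophages read comparable "eat" and "do not eat" signals. Tissue cells such as fibroblasts and epithelium carry several of the braking ligands. The RNA of 7 such genes is described here, of 49670 genes counted: Tnfrsf9, Vtcn1, Lgals9, Cd274, Icosl, Cd47 and Cd200. They were found by symbol in the count table. The list itself was chosen with measured values of the same comparisons in view, so the calls of these 7 genes are a description and nothing is supported with them. Tnfrsf9 encodes the costimulatory receptor 4-1BB, and is thus a receptor among ligands. Vtcn1 (B7-H4), Cd274 (PD-L1) and Icosl (the ligand of ICOS) belong to the B7 family. Lgals9 encodes galectin-9, a secreted lectin that binds TIM-3 and other glycoproteins. Cd47 encodes the ligand of the macrophage receptor SIRP-alpha, and Cd200 a ligand of inhibitory receptors of myeloid cells.

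RNA was sequenced from Patski cells, a female mouse fibroblast line from a cross of C57BL/6 with SPRET/EiJ, so that reads over a parental difference can be assigned to 1 parental genome. There were 4 groups of 2 libraries: wild type (WT), stc1 -/-, pygo1 -/- and rlim -/-, the last 3 made in the same line and described as independent knockout mutants. All were kept in DMEM with 10% FBS. The labels give neither the lesion in each mutant nor how the WT pair was made, so p-values measure only the spread between these libraries, and clonal differences between lines cannot be told apart from the genotype. Total counts were 73128996 to 81500061 per library, and 50.64 to 52.64% of them carried a genome. Which parent is genome 1 was not given in the sources used here. The median gene differed by 0.10 (absolute log2) within the WT pair, 0.06 within the Rlim pair, 0.19 within the Pygo1 pair and 0.34 within the Stc1 pair, in which replicate 2 stood apart.

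The RNA of the targeted genes did not check the labels. Reads of Stc1 numbered 295 and 251 in WT and were 265 and 5138 under the Stc1 label. Those of Pygo1 were 191 and 195 in WT against 199 and 49 under its own label. For Rlim they were 4393 and 4099 in WT against 5489 and 4997 under its own label. None was called lower in its own label (edgeR, adjusted p = 0.236, 0.715 and 0.699), so the groups are called by their labels below. Of 10 fibroblast markers 4 reached 1 CPM (reads scaled to library depth, with TMM factors) in every library and 5 stayed below it in all of them. Thy1 and Lum had at most 4 and 2 reads. Of 10 kidney epithelium markers 5 reached 1 CPM in every library (among them Cdh16, Pax2 and Pax8), while Krt18 and Lhx1 stayed below it and Epcam and Krt8 had medians of 1.03 and 1.08 CPM. Their sum (2713 to 4135 CPM) lay above that of the fibroblast markers (912 to 1408 CPM, mostly Vim). Of 12 leukocyte markers 8 stayed under 1 CPM, Cd3e and Ncr1 were at 0 throughout, and Ptprc had at most 22 reads. The 3 above it in every library were Cd14 (46 to 69.5 CPM), Csf1r (26.5 to 57 CPM) and Cd68 (1.81 to 7.61 CPM), which made up nearly all of the sum. The leukocyte sum was 105 to 111 CPM in WT, 96.2 to 113 for Stc1, 89 to 114 for Pygo1 and 86.6 to 86.7 for Rlim.

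In WT cells, 3 of the 7 genes were abundant and the other 4 were low. Per kilobase of annotated exon, the mean WT level was 12.9 RPKM for Lgals9, 10.8 for Cd47 and 7.87 for Icosl. Cd274 followed at 0.905, Tnfrsf9 at 0.41, Vtcn1 at 0.142 and Cd200 at 0.0269 RPKM. The 2 WT libraries of neighbours in this order did not overlap at any step. The order of the abundant 3 depended on the division by length: in CPM it was Cd47 (68.1), Icosl (36.4) and Lgals9 (27.6).

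Against WT, Tnfrsf9 and Vtcn1 rose under all 3 labels, while Lgals9 fell under the Stc1 label and rose under the Pygo1 label. In the Stc1-labelled libraries 3 of the 7 genes were called (Tnfrsf9 and Vtcn1 up, Lgals9 down), beside 0.577% of the 17839 genes tested. In the Pygo1-labelled libraries 3 were called (Tnfrsf9, Vtcn1 and Lgals9, all up), beside 2.35%. In the Rlim-labelled libraries 2 were called (Tnfrsf9 and Vtcn1, both up), beside 1.4%. Called means an adjusted p under 0.05 in edgeR's quasi-likelihood test over all 8 libraries. These 3 comparisons share the WT pair, and the genes were chosen from them, so nothing is read from the counts. The median log2 fold change of the 7 genes was 0.52, 1.18 and 0.14 for Stc1, Pygo1 and Rlim, against 0.014, -0.001 and 0.006 over all genes tested. Between labels, 2 of the 7 genes were called for Stc1 against Pygo1 (all genes: 1.74%) and 2 for Pygo1 against Rlim (1.02%), Lgals9 and Cd274 each time. None was called for Stc1 against Rlim in edgeR (0.381%), where 2666 of all genes had an unadjusted p under 0.05. DESeq2 called 3 of the 7 there, beside 777 of 17305 genes. When 1 library was left out, calls over all genes became far fewer without a WT or Rlim library. They became far more without a Stc1 library, so calls lost or gained in those fits do not set a gene apart.

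**Figure D1:**
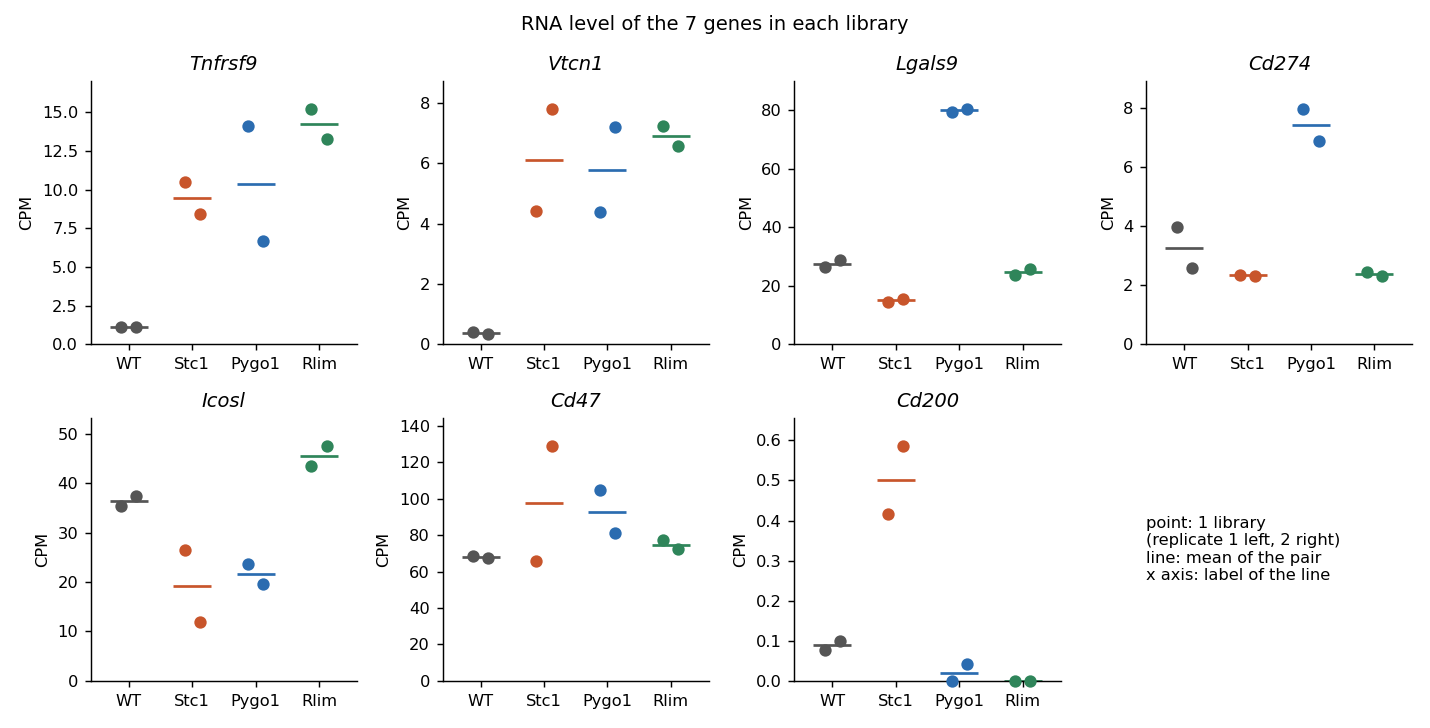
RNA level in CPM (each axis starts at 0) of the 7 genes in the 2 libraries of each group; points are libraries and lines are the means of the pairs. All 6 libraries of the 3 knockout labels lie above both WT libraries for Tnfrsf9 and Vtcn1, the Pygo1-labelled pair stands alone for Lgals9 and Cd274, and the Stc1-labelled pair is wide for Icosl and Cd47.

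Tnfrsf9 (ENSMUSG00000028965) lies at chr4:150914562-150946102 on the plus strand (GRCm38, as for the positions that follow). Its product 4-1BB is known from activated T cells, where binding of its ligand sends a survival signal through TRAF adaptors. Tnfrsf9 was at 1.09 and 1.14 CPM in WT (84 and 91 reads). It was at 10.5 and 8.43 CPM in the Stc1-labelled, 14.1 and 6.69 in the Pygo1-labelled and 15.2 and 13.3 in the Rlim-labelled libraries. All 6 knockout-labelled libraries lay above WT, the lowest of them at 5.99 times the WT mean, and the 3 labels overlapped each other except Stc1 and Rlim. In edgeR the rise was 8.44-fold for Stc1 (log2 3.08 ± 0.37 SE, adjusted p = 0.0256), 9.31-fold for Pygo1 (3.22 ± 0.37, adjusted p = 0.0152) and 12.7-fold for Rlim (3.67 ± 0.38, adjusted p = 0.0182). More cells with this RNA and more RNA per cell cannot be told apart in bulk samples.

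The labels did not differ from each other in Tnfrsf9 by more than the test could show. The 95% interval of the ratio was 0.524 to 1.57 for Stc1 over Pygo1, 0.382 to 1.15 for Stc1 over Rlim and 0.422 to 1.26 for Pygo1 over Rlim (edgeR, adjusted p = 0.873, 0.46 and 0.559). The calls against WT ended without either WT library and without either Rlim-labelled library, as did most calls over all genes. With 1 library left out, the log2 fold change of Tnfrsf9 ran from 2.91 to 3.22 for Stc1, 2.57 to 3.65 for Pygo1 and 3.58 to 3.77 for Rlim. The Stc1 call also ended with only the 4 libraries compared (edgeR, adjusted p = 0.126), where 0 of 16877 genes were called. Tnfrsf9 shares its locus with Camta1 on the opposite strand, with no shared exon base, and whether reads were counted by strand is not stated in the sources. Camta1 had 525 to 887 reads per library and was not called under any label (edgeR, adjusted p = 0.631, 0.767 and 0.798).

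Vtcn1 (ENSMUSG00000051076, chr3:100825459-100896922, plus strand) encodes B7-H4, a B7 family member that restrains T cells and is known from epithelia and carcinomas. It was barely present in WT, at 0.404 and 0.338 CPM (31 and 27 reads). It was at 4.43 and 7.8 CPM in the Stc1-labelled, 4.38 and 7.2 in the Pygo1-labelled and 7.24 and 6.59 in the Rlim-labelled libraries. Again all 6 libraries lay above WT, by at least 11.8 times the WT mean, and the 3 labels overlapped. The rise was 16.4-fold for Stc1 (log2 4.04 ± 0.40, edgeR, adjusted p = 0.0151), 15.5-fold for Pygo1 (3.96 ± 0.40, adjusted p = 0.00983) and 18.6-fold for Rlim (4.21 ± 0.40, adjusted p = 0.0129). Between labels the ratio had a 95% interval of 0.606 to 1.84 (Stc1 over Pygo1), 0.508 to 1.54 (Stc1 over Rlim) and 0.48 to 1.46 (Pygo1 over Rlim).

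The Vtcn1 calls also ended without either WT library, and those for Stc1 and Rlim without either Rlim library, as did most calls over all genes. With 1 library left out, the log2 fold change of Vtcn1 ran from 3.57 to 4.38 for Stc1, 3.55 to 4.27 for Pygo1 and 4.10 to 4.35 for Rlim. With only the 4 libraries compared the Stc1 call ended (edgeR, adjusted p = 0.16). The summed CPM of 8 endothelial markers was also higher in the knockout-labelled libraries than in WT. Only 1 of the 8 reached 1 CPM in every library, and 4 stayed below it in all of them. The sum was 7.96 to 9.44 CPM in WT, 16.9 to 105 for Stc1, 13.8 to 15 for Pygo1 and 17 to 18.6 for Rlim, with Cdh5 alone at 0.991 to 100 CPM. Kdr and Tie1 had at most 1 and 2 reads in any library. The part of this in the rise of either gene was not tested.

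Lgals9 (ENSMUSG00000001123, chr11:78962974-78984946, minus strand) was called in opposite directions against WT under the Stc1 and Pygo1 labels. It was at 26.3 and 28.8 CPM in WT, 14.6 and 15.5 in the Stc1-labelled, 79.6 and 80.4 in the Pygo1-labelled and 23.8 and 25.8 in the Rlim-labelled libraries. No pair overlapped another, with the Stc1 pair lowest and the Pygo1 pair far above the rest. Against WT it rose 2.9-fold for Pygo1 (log2 1.54 ± 0.12, edgeR, adjusted p = 0.00311) and fell 1.83-fold for Stc1 (-0.87 ± 0.11, adjusted p = 0.0343). For Rlim the ratio to WT had a 95% interval of 0.746 to 1.08 (adjusted p = 0.531). The Stc1-labelled pair was 5.31-fold below the Pygo1-labelled pair (log2 -2.41 ± 0.12, edgeR, adjusted p = 0.00088), and the Pygo1-labelled pair 3.23-fold above the Rlim-labelled pair (1.69 ± 0.12, adjusted p = 0.00368).

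The difference in Lgals9 between Stc1 and Pygo1 was called with each of the 8 libraries left out in turn, and ended only with the 4 libraries compared alone (edgeR, adjusted p = 0.132). The rise for Pygo1 ended without WT replicate 1 or 2 (0.115 or 0.0913), and the difference from Rlim without Rlim replicate 1 or 2 (0.124 or 0.115). The call of the fall for Stc1 ended without either library of WT, Pygo1 or Rlim, and with the 4 libraries compared alone (edgeR, adjusted p = 0.313). With 1 library left out, its log2 fold change ran from -0.93 to -0.80. Kidney epithelium markers summed to 3453 to 3608 CPM in WT, 4034 to 4135 for Stc1, 2713 to 3100 for Pygo1 and 3442 to 3578 for Rlim, an order opposite to that of Lgals9 for Stc1 and Pygo1, and their part in it was not tested. Stc1 against Rlim did not pass (log2 -0.72 ± 0.11, edgeR, adjusted p = 0.0613). With 1 library left out, its log2 fold change ran from -0.78 to -0.65.

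Cd274 (ENSMUSG00000016496, chr19:29367455-29388095, plus strand) encodes PD-L1, which binds PD-1 on T cells and inhibits them, and is induced by interferon in many cell types. It was at 3.96 and 2.59 CPM in WT, 2.34 and 2.33 in the Stc1-labelled, 7.97 and 6.88 in the Pygo1-labelled and 2.44 and 2.33 in the Rlim-labelled libraries. The Pygo1 pair lay above every other library, and the Stc1 and Rlim pairs lay below WT. Against WT the difference for Pygo1 was log2 1.18 ± 0.24 and did not pass (edgeR, adjusted p = 0.0626). With 1 library left out it ran from 0.91 to 1.52. It passed with the 4 libraries compared alone (edgeR, adjusted p = 0.0417) and in DESeq2 (adjusted p = 0.000865). The values for Stc1 and Rlim were -0.49 ± 0.24 and -0.46 ± 0.24 (adjusted p = 0.384 and 0.381).

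Between labels, Cd274 was 3.18-fold lower for Stc1 than for Pygo1 (log2 -1.67 ± 0.25, edgeR, adjusted p = 0.0333) and 3.12-fold higher for Pygo1 than for Rlim (1.64 ± 0.25, adjusted p = 0.0415). Both calls ended when any library of WT, Pygo1 or Rlim was left out. The adjusted p (edgeR) for Stc1 against Pygo1 was then 0.0753 and 0.0739 (WT), 0.0901 and 0.0727 (Pygo1) and 0.123 and 0.124 (Rlim). For Pygo1 against Rlim it was 0.102 and 0.102, 0.0978 and 0.0913, and 0.477 and 0.478. With the 4 libraries compared alone, the difference between Stc1 and Pygo1 had an adjusted p of 0.392. An annotated antisense RNA, AC119228.1, covers 511 exon bases of Cd274. Without a known strand setting, its reads cannot be told apart from those of Cd274.

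Icosl (ENSMUSG00000000732, chr10:78069302-78083913, plus strand) encodes the ligand of ICOS, which costimulates helper T cells and is found on many tissue cells. It was at 35.4 and 37.3 CPM in WT, 26.5 and 11.9 in the Stc1-labelled, 23.7 and 19.5 in the Pygo1-labelled and 43.4 and 47.5 in the Rlim-labelled libraries. The Stc1 and Pygo1 libraries all lay below WT and the Rlim libraries above, but the 2 Stc1 libraries differed 2.22-fold. None of these differences passed in edgeR: log2 -0.92 ± 0.34 for Stc1, -0.75 ± 0.33 for Pygo1 and 0.32 ± 0.33 for Rlim (adjusted p = 0.256, 0.261 and 0.668). Without Stc1 replicate 1 the value for Stc1 was -1.61, and without either Stc1 library that for Pygo1 was -0.76. The difference between Pygo1 and Rlim was then -1.08. That between Stc1 and Rlim was -1.93 without Stc1 replicate 1 and -0.78 without Stc1 replicate 2. Stc1 against Pygo1 gave -0.85 without Stc1 replicate 1. Calls over all genes became far more in fits without a Stc1 library, so calls of Icosl there are not read.

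Cd47 (ENSMUSG00000055447, chr16:49800533-49915010, plus strand) encodes the "do not eat me" ligand that engages SIRP-alpha on macrophages and also binds thrombospondin-1. It was at 68.7 and 67.4 CPM in WT, 66 and 129 in the Stc1-labelled, 105 and 81 in the Pygo1-labelled and 77.3 and 72.2 in the Rlim-labelled libraries. Stc1 replicate 2 was the highest of all and replicate 1 the lowest, so that pair spanned every other library. The differences from WT did not pass: log2 0.52 ± 0.30, 0.45 ± 0.30 and 0.14 ± 0.30 for Stc1, Pygo1 and Rlim (edgeR, adjusted p = 0.435, 0.432 and 0.857). Leaving out Stc1 replicate 1 gave 0.92 for Stc1 against WT and 0.79 against Rlim, and leaving out replicate 2 gave -0.05 against WT. The direction of Cd47 under the Stc1 label therefore depended on 1 library.

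Cd200 (ENSMUSG00000022661, chr16:45382135-45409053, minus strand) was the lowest of the 7 genes. It had 6 and 8 reads in WT, 30 and 44 in the Stc1-labelled, 0 and 3 in the Pygo1-labelled and 0 and 0 in the Rlim-labelled libraries. It entered the test only through the Stc1-labelled pair, which no other library overlapped. Over each pair, Stc1 was 5.62-fold above WT (exact 95% counting interval 3.15 to 10.8) and 25.5-fold above Pygo1 (8.38 to 126). With 3 reads as the floor of a pair without reads, WT was 4.59-fold and Stc1 25.8-fold higher than Rlim. The counting error of the WT and Stc1 reads is not in these floor ratios. The intervals cover counting error only. Over the libraries no difference passed, with log2 2.47 ± 0.73 for Stc1 against WT (edgeR, adjusted p = 0.206). The differences of Stc1 from Rlim and from Pygo1 had an adjusted p of 0.0776 and 0.0747 (edgeR). Calls of Cd200 without a Stc1 library are not read, since calls over all genes became far more there.

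**Figure D2:**
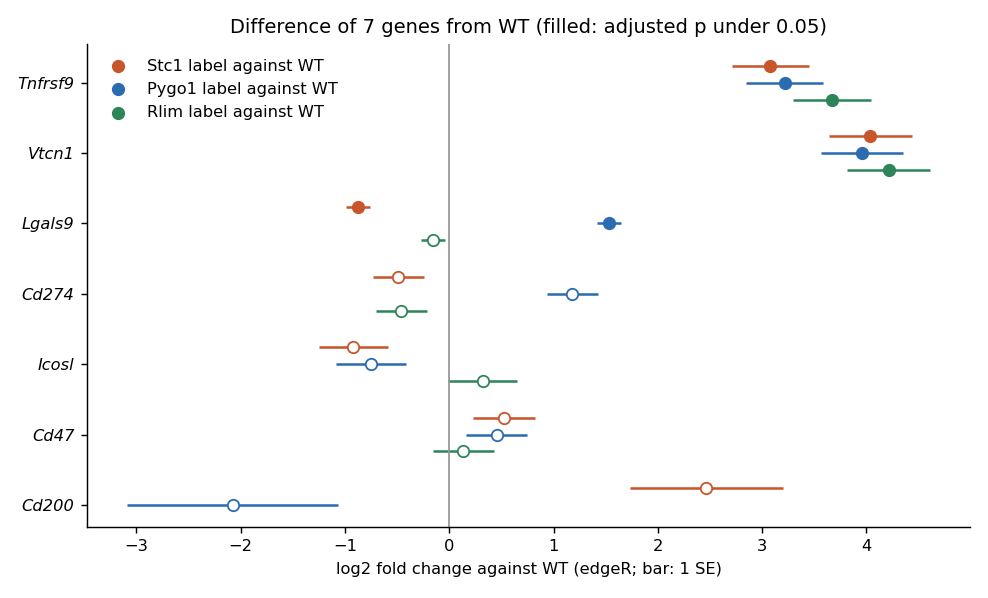
Log2 fold change against WT of the 7 genes under each label (edgeR; bars are 1 SE; filled points have an adjusted p under 0.05); no value is drawn for Cd200 under the Rlim label, where it had no read. Tnfrsf9 and Vtcn1 lie between 3.08 and 4.21 under all 3 labels, and Lgals9 lies at -0.87, 1.54 and -0.15.

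The genome counts give the parental genome to which reads of each gene were assigned. A changed share of genome 1 was tested in 5 of the 7 genes, since Vtcn1 and Cd200 had under 20 genome reads in some library. For Stc1 against WT 0 of the 5 were called, beside 5.54% of 12476 genes. For Pygo1 against WT 1 was called, Cd274, beside 20%, and for Rlim against WT 0, beside 11.9%. The other genes around each locus were read as well: the 5 nearest on each side with at least 20 genome reads in every library.

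**Figure D3:**
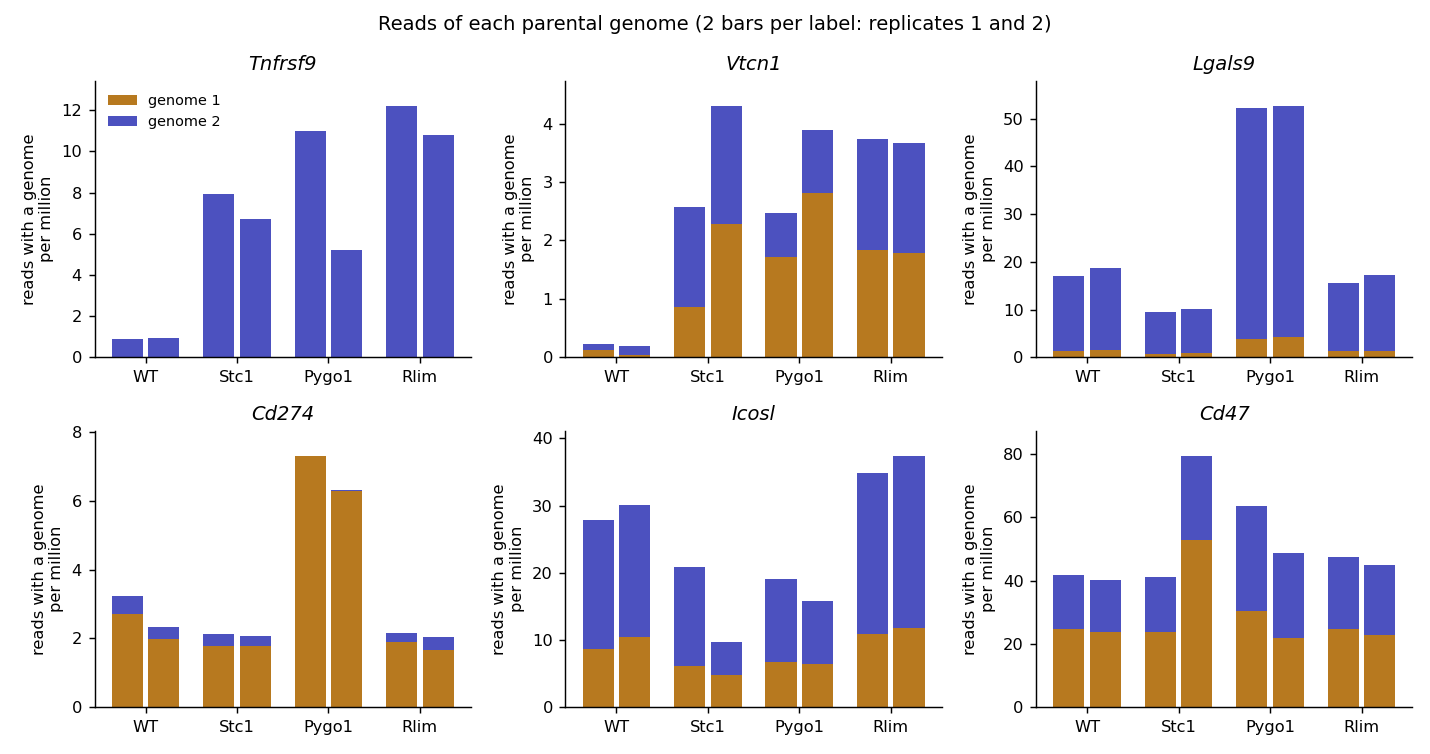
Reads of genome 1 and genome 2 in CPM in each library (stacked bars from 0, replicates 1 and 2 of each group) for the 6 genes with enough reads. Tnfrsf9 and Lgals9 are mostly genome 2, Cd274 is mostly genome 1, and the genome 2 part of Cd274 is all but missing from the Pygo1-labelled bars.

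The rise of Tnfrsf9 was a rise of genome 2 reads. They numbered 68 and 74 in WT, 571 and 502 for Stc1, 877 and 380 for Pygo1 and 931 and 838 for Rlim, while genome 1 had at most 2 reads in any library. The genome 1 share over both WT libraries was 0 of 142 reads (95% Wilson interval 0 to 2.63%). The neighbours' median was 0.25 to 0.442% in all 8 libraries, with the highest of the 10 at 50 to 89.5%, and 504 to 511 of 784 genes of chromosome 4 were under 5%. A test of the Tnfrsf9 share therefore rests on a handful of reads.

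Vtcn1 had reads assigned to both genomes under every label. Genome 1 had 10 and 3 reads in WT, 62 and 172 for Stc1, 137 and 205 for Pygo1 and 140 and 139 for Rlim. Genome 2 had 8 and 12, 124 and 151, 60 and 78, and 144 and 146. Both counts were thus higher in each knockout-labelled library than in WT. The genome 1 share lay below that of all 10 neighbours in all 8 libraries. In the Pygo1-labelled pair the neighbours' medians were 98.8 and 99.1%, and 519 and 521 of 630 genes of chromosome 3 were over 95%, against 139 to 144 elsewhere. Vtcn1 stood at 69.5% (62.8 to 75.5) and 72.4% (67 to 77.3) there, with only 25 and 27 genes of the chromosome lower. In the Rlim-labelled pair it was 49.3% and 48.8%, with neighbours at 72.7 and 71.9%. The median gene of chromosome 3 had a log2 fold change of 0.21 against WT in the Pygo1-labelled pair, against 3.96 for Vtcn1.

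Lgals9 kept its genome share at every level. Genome 1 made up 7.59 and 8.45% of its genome reads in WT, 6.39 and 8.54% for Stc1, 7.27 and 7.87% for Pygo1 and 8.09 and 7.43% for Rlim. The Wilson intervals of all 8 libraries overlapped, and no change of the share was called (edgeR, adjusted p = 0.946, 0.814 and 1). Reads of the genomes moved together, by log2 1.46 (genome 1) and 1.56 (genome 2) for Pygo1 and by -0.95 and -0.85 for Stc1. The neighbours' median was lower, at 0.431 to 1.81%, with the highest of the 10 at 12.5 to 19.4%. Of 1042 genes of chromosome 11, 250 to 314 had a higher share than Lgals9. A minor part of Lgals9 RNA was thus assigned to genome 1 on a chromosome read mostly as genome 2, as for other genes there.

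Cd274 had reads of 1 genome only, or nearly so, in the Pygo1-labelled libraries. Genome 2 had 40 and 26 reads in WT, 27 and 23 for Stc1, 0 and 2 for Pygo1 and 19 and 28 for Rlim. Genome 1 had 207 and 159, 127 and 133, 581 and 456, and 144 and 130. Its share was 83.8 and 85.9% in WT and 100% (99.3 to 100) and 99.6% (98.4 to 99.9) for Pygo1, a change of the log2 odds of 6.35 ± 0.78 (edgeR, adjusted p = 0.00429). The size of this value depends on the 2 genome 2 reads of Pygo1 replicate 2, without which it was 9.63, and the call ended with only the 4 libraries compared. The 10 neighbours changed alike: each was between 99.6 and 100% in the Pygo1-labelled pair, with medians of 76.4 to 82.7% in the other 6 libraries. Over 95% were 175 and 292 of 454 genes of chromosome 19 there, against 17 to 21 elsewhere. In that pair genome 1 reads of Cd274 were log2 1.53 above WT. In all reads Cd274 was log2 1.18 above WT, and the median gene of chromosome 19 was 0.02 above it.

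Icosl and Cd47 had reads of both genomes in every library, and no change of either share was called. Icosl stood at 31.1 and 34.6% in WT, 29.4 and 48.8% for Stc1, 34.8 and 40.3% for Pygo1 and 31.1 and 31.2% for Rlim. The 2 highest libraries were also those in which its neighbours were highest, with medians of 53.6% (Stc1 replicate 2) and 51.4% (Pygo1 replicate 2) against 44.9 to 46% elsewhere. In Stc1 replicate 2 Icosl had 4.69 CPM of genome 1 and 4.93 of genome 2, against 8.67 and 10.4 of genome 1 and 19.2 and 19.7 of genome 2 in WT. The adjusted p for the Icosl share was 0.847, 0.665 and 1 (edgeR).

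Cd47 stood at 59.2 and 59.1% in WT, 57.7 and 66.7% for Stc1, 47.7 and 44.7% for Pygo1 and 52.1 and 50.4% for Rlim. Its neighbours' medians were 55.1 and 52.3%, 51.4 and 58.4%, 37.9 and 39%, and 46.4 and 45.8%. Cd47 was above these medians in all 8 libraries, and both were lowest in the Pygo1-labelled pair. The change of odds did not pass for Pygo1 (log2 -0.76 ± 0.21, edgeR, adjusted p = 0.0611) or Rlim (-0.46 ± 0.21, adjusted p = 0.272). With 1 library left out, the value for Pygo1 ran from -0.84 to -0.67. Genome 2 reads of Cd47 were at 17 and 16.4 CPM in WT and 33.2 and 26.9 for Pygo1, while genome 1 reads were at 24.7 and 23.7 and at 30.3 and 21.8. The part of the regional shift in the level of any of the 7 genes was not tested.

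**Figure D4:**
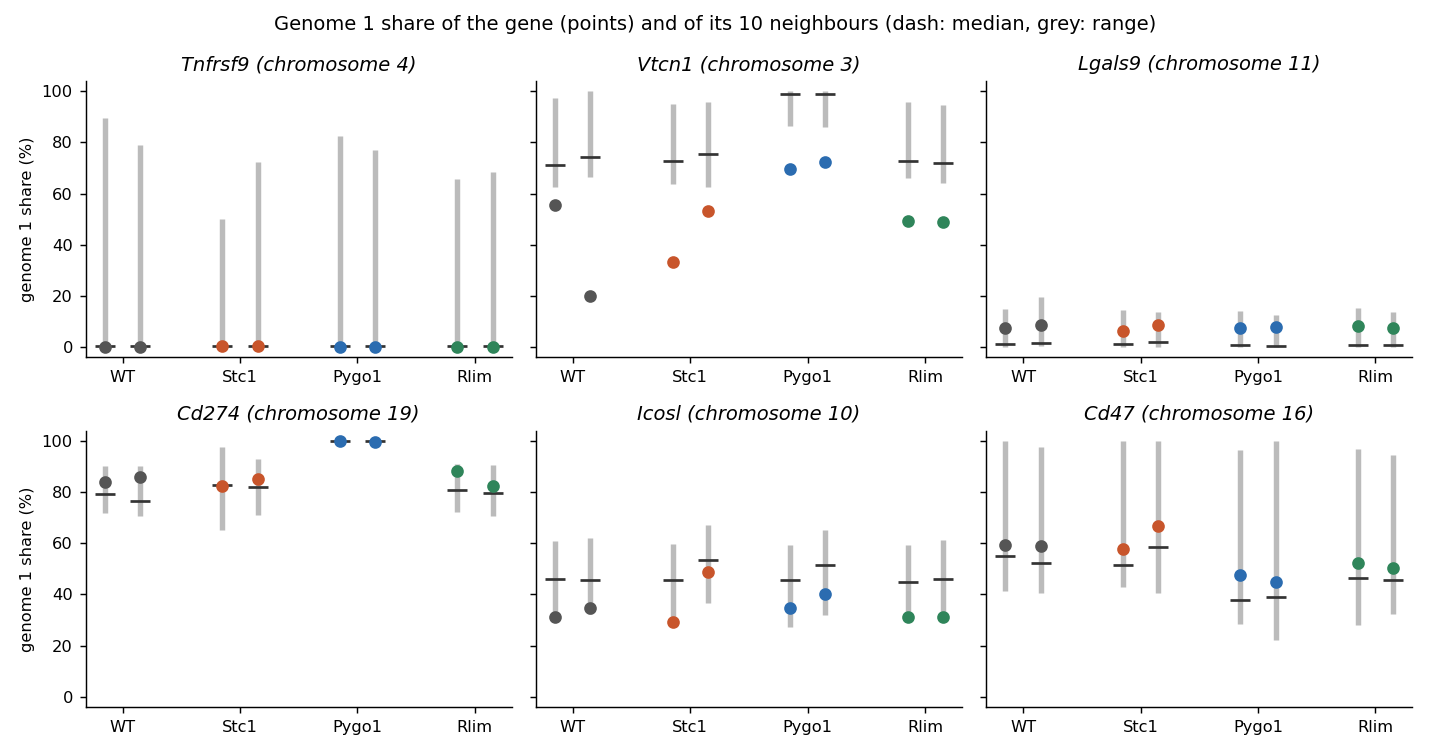
Share of genome 1 among genome reads, in percent, of 6 of the genes (points) and of their 10 neighbours (dash, median; grey, range) in each library. The Cd274 points follow their neighbours to 100% in the Pygo1-labelled pair, while the Vtcn1 points stay at 69.5 and 72.4% below neighbours at 98.8 and 99.1%.

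The proteins that meet the 7 products were mostly those of the other cell, and most of their genes were silent here. Of 12 receptors and binding partners, 5 were tested. PD-1 (Pdcd1) had 1 read in all, CD28 (Cd28) 4, and Ctla4 and Cd200r4, an activating relative of the CD200 receptor, had none. Havcr2 (TIM-3), Icos and Cd200r1 had at most 5, 10 and 2 reads in any library. Tnfsf9, which encodes the ligand of 4-1BB, was at 5.55 and 5.94 CPM in WT, 6.43 and 17.3 for Stc1, 6.67 and 3.22 for Pygo1 and 5.9 and 5.86 for Rlim. It did not pass under any label (edgeR, adjusted p = 0.358, 0.841 and 0.982). The opposite-strand lincRNA Gm11110 (114 to 1017 reads per library) shares 192 exon bases with Tnfsf9, so reads of these genes cannot be fully told apart.

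Sirpa encodes the receptor of CD47 and was the only one of the 5 tested partner genes called against WT. Over all genes tested, 0.577, 2.35 and 1.4% were called for Stc1, Pygo1 and Rlim. Sirpa was at 13.6 and 13.9 CPM in WT and at 52.2 and 54.8 for Rlim. It had only 8 and 9 reads for Stc1 and 7 and 8 for Pygo1. Log2 fold changes were -6.88 ± 0.19, -7.10 ± 0.19 and 1.96 ± 0.13 (edgeR, adjusted p = 5.68e-05, 2.54e-05 and 0.00373). The Rlim call ended without either library of WT (0.131 and 0.119) or Rlim (0.0845 and 0.112), and the Stc1 call with the 4 libraries compared alone (0.0501). Its reads were 88.1 to 93.6% genome 1 in WT and Rlim. The median gene of its chromosome 2 was at 6.86 and 7.06% in WT, 1.35 and 1.36% for Stc1, 1.61 and 1.3% for Pygo1 and 23.6 and 23.4% for Rlim. The medians of its 10 neighbours were 20.5 and 23.8%, 19.1 and 16.9%, 17.9 and 17.4%, and 38.9 and 40.4%. The part of these shifts in the level of Sirpa was not tested. Cd47 itself was called under none of these labels.

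Thbs1, which encodes the CD47 ligand thrombospondin-1, was at 1089 and 1051 CPM in WT, 765 and 392 for Stc1, 395 and 485 for Pygo1 and 519 and 494 for Rlim. All 6 libraries lay below WT, but no difference passed (edgeR, adjusted p = 0.22, 0.0774 and 0.127). Thbs2 had at most 15 reads in a library. Cd44, an adhesion receptor and one of the binding partners of galectin-9, was at 187 and 185 CPM in WT, 206 and 219 for Stc1, 226 and 256 for Pygo1 and 139 and 133 for Rlim. It passed only for Pygo1 against Rlim (log2 0.82 ± 0.11, edgeR, adjusted p = 0.0312), and that call ended without either library of WT (0.146 and 0.146) or Rlim (0.442 and 0.472) and without Pygo1 replicate 2 (0.0887).

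In the 5 other lists of the same pathways few genes passed. Together with the partners they held 68 genes, of which 8 had no read and 40 were tested. In Stc1 against WT 0 rose and 1 fell (2.5% of those tested, beside 0.577% of all genes), in Pygo1 2 rose and 1 fell (7.5%, beside 2.35%), and in Rlim 2 rose and 0 fell (5%, beside 1.4%). The median log2 fold changes of the 40 genes were 0.16, 0.18 and 0.24. The partner gene Sirpa was the gene that fell for Stc1 and for Pygo1, and was among those that rose for Rlim. Of the regulators of PD-L1, CD47 and 4-1BB, 2 of 14 rose for Pygo1 and 0 for Stc1 and Rlim. Nfkb1, which encodes the p105 and p50 subunit of NF-kappaB, was at 136 and 134 CPM in WT, 107 and 88.2 for Stc1, 305 and 294 for Pygo1 and 174 and 167 for Rlim. Its rise for Pygo1 was log2 1.15 ± 0.12 (edgeR, adjusted p = 0.0121), with -0.47 for Stc1 and 0.34 for Rlim (0.163 and 0.221). Traf2, an adaptor that binds 4-1BB, rose by 0.69 ± 0.12 for Pygo1 (0.0436), with 0.24 for Stc1 and 0.64 for Rlim (0.398 and 0.0613).

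Both calls for Pygo1 ended without WT replicate 1 or 2 (edgeR, adjusted p = 0.197 and 0.216 for Nfkb1, 0.373 and 0.34 for Traf2) and without either Rlim library (0.0638 and 0.0646, 0.15 and 0.151). That of Traf2 also ended without either Pygo1 library (0.108 and 0.124). Between labels Nfkb1 was lower for Stc1 than for Pygo1 (log2 -1.62 ± 0.13, edgeR, adjusted p = 0.0056) and higher for Pygo1 than for Rlim (0.81 ± 0.12, adjusted p = 0.0429). The first of these ended with the 4 libraries compared alone (0.294), and the other without any library of WT, Pygo1 or Rlim (0.0978 to 0.508).

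Among the other TNF superfamily costimulators, 1 of 4 tested genes was called for Rlim against WT (all genes: 1.4%) and 0 in each of the other 5 comparisons. Cd40, which encodes the receptor of the T-cell ligand CD40L, had 2 and 1 reads in WT, 10 and 19 for Stc1, 39 and 13 for Pygo1 and 33 and 37 for Rlim. The 6 knockout-labelled libraries were all above WT, with pooled ratios of 10.3 (exact 95% counting interval 3.18 to 52.7), 17.8 (5.78 to 89.3) and 23.7 (7.79 to 118). Cd40 entered the test only through the knockout-labelled libraries, so its calls against WT are a description. Over the libraries the difference passed for Rlim (log2 4.45 ± 0.76, edgeR, adjusted p = 0.0484), with 0.144 for Stc1 and 0.0517 for Pygo1. The Rlim call ended without either library of WT or Rlim, with a log2 fold change of 4.04 to 5.01 when 1 library was left out. Calls for Pygo1 and Stc1 that began with a library left out are not read, since calls over all genes changed widely there.

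Against WT, 0 of 3 tested B7 genes outside the 7 were called, 0 of 8 genes of the TIGIT, LAG3 and other coinhibitory axes, and 0 of 6 genes of the galectin list, which includes the galectin-3 binding protein gene Lgals3bp. Over all genes 0.577 to 2.35% were called, so these counts of 0 do not set the lists apart. The B7 gene with the highest level was Cd276 (B7-H3), at 47.4 to 122 CPM with adjusted p of 0.729, 0.895 and 0.829 for Stc1, Pygo1 and Rlim (edgeR). Vsir, which encodes the checkpoint protein VISTA, was next at 0.413 to 1.43 CPM. The other 3 of this list, Cd80 and Cd86 (the classical ligands of CD28 and CTLA-4) and Btnl2, had no read and are named for that after their values were seen. Nectin2, a ligand of TIGIT, was at 323 to 521 CPM and Cd24a, a ligand of the macrophage receptor Siglec-G, at 267 to 662 CPM. Galectin-1 (Lgals1) was at 1186 to 1884 CPM and galectin-3 (Lgals3) at 155 to 269 CPM, the 2 highest of that list. Whether Lgals9 differed from them in its response was not tested.

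**Figure D5:**
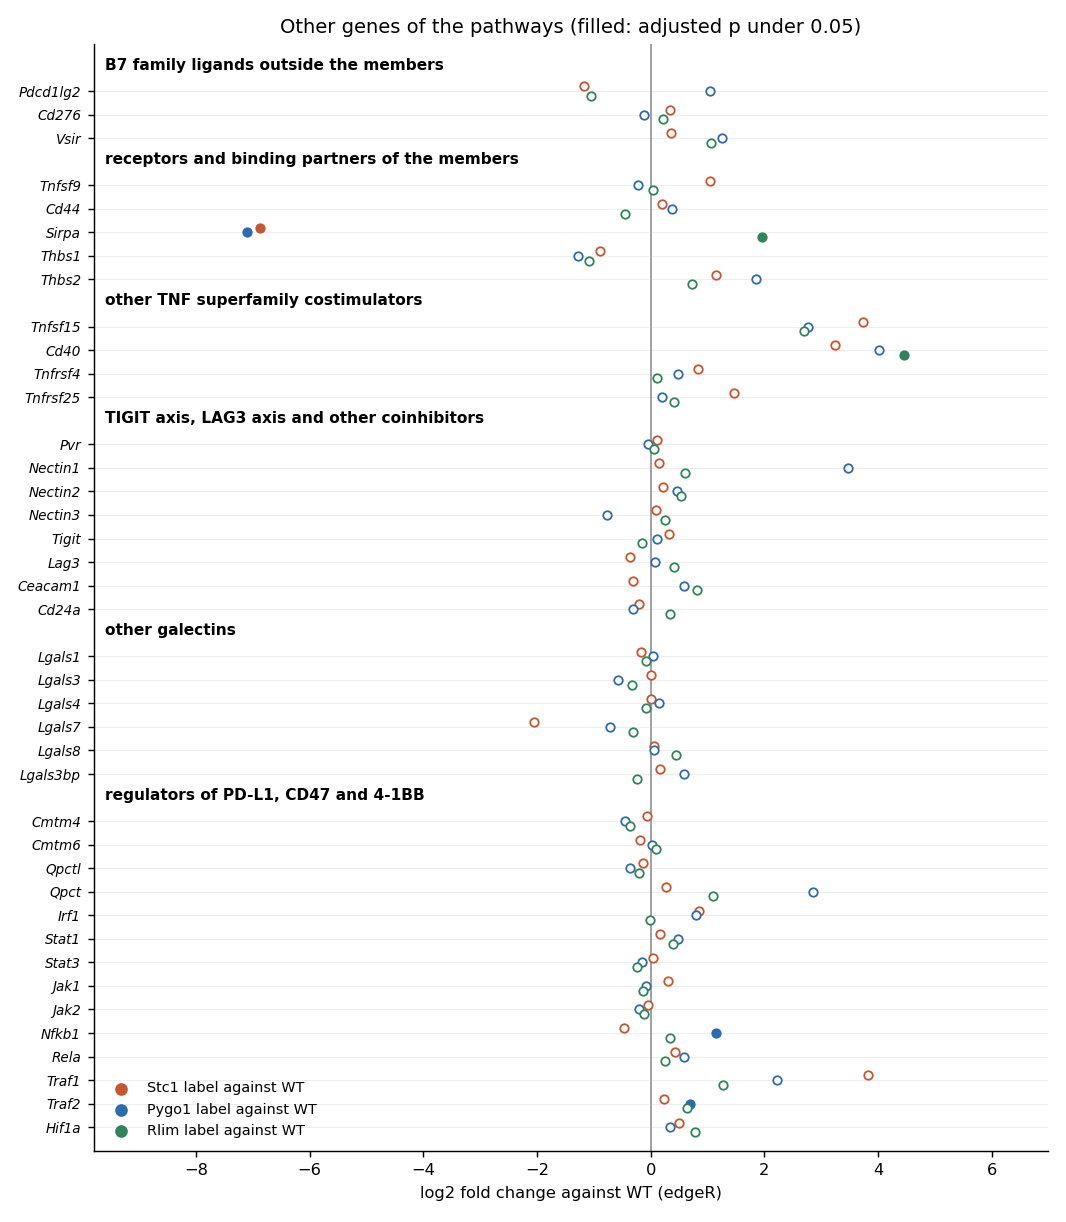
Log2 fold change against WT (edgeR) of the 40 tested genes of the 6 other pathway lists, by label; filled points have an adjusted p under 0.05. Sirpa lies at -6.88 and -7.10 for Stc1 and Pygo1 and at 1.96 for Rlim, and the other filled points are Cd40 (4.45, Rlim), Nfkb1 (1.15, Pygo1) and Traf2 (0.69, Pygo1).

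The genes with the most similar profiles were taken by Pearson correlation of log2(CPM + 0.5) over the 8 libraries, among the 9957 genes that averaged 5 CPM or more. The points share the WT pair and pairs of related libraries, so r is a description. Tnfrsf9 was closest to Cxcl5 (r = 0.994), a neutrophil chemokine, followed by D10Wsu102e (0.985) and the metalloreductase gene Steap4 (0.984). Cxcl5 was at 22.2 and 19.7 CPM in WT, 244 and 231 for Stc1, 310 and 170 for Pygo1 and 420 and 415 for Rlim, and so shared the low second Pygo1 library. The profile of Vtcn1 was close to those of Ppic (0.994) and Wdyhv1 (0.99), whose levels differed far less: Ppic was at 8.02 and 8.31 CPM in WT and 16 to 22.4 elsewhere.

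Lgals9 was closest to Arsb (r = 0.984), Scly (0.979) and Mttp (0.974), and Cd274 to Cpne8 (0.969), Agpat5 (0.967) and Fam102b (0.958). All of these were highest in the Pygo1-labelled pair, with Arsb at 128 and 139 CPM there and 64.6 to 86 elsewhere. Icosl was closest to Apbb2 (0.987), Ndrg3 (0.985) and Ppif (0.978), which were lowest in Stc1 replicate 2. Cd47 was closest to the receptor gene Notch3 (0.984), Stra6 (0.982) and Bcl9l (0.981), which were highest in Stc1 replicate 2. For Cd200 they were Utp4 (0.985), Mlycd (0.98) and Etv6 (0.979), with Cd200 at 0 to 44 reads. With Spearman correlation in place of Pearson, the 3 closest genes were others for Lgals9, Icosl, Cd47 and Cd200, and 1 of the 3 was shared for Tnfrsf9 and for Cd274.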

How the data were processed

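RNA was extracted with Trizol, made into TruSeq libraries and sequenced on a GAIIx, per the labels' protocols. The submitters' processing notes name featureCounts, HISAT2 2.0.5, Cufflinks and build mm10, with no role or order given. The authors deposited raw counts per Ensembl gene: all reads, reads of genome 1 and reads of genome 2 in each of 8 libraries. The annotation, the strand setting, the treatment of multi-mapped reads and the tool that split the genomes are not given in the sources used here. A reference-biased alignment could shift genome shares, so these were compared between libraries.

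The 7 genes and all gene lists were chosen with earlier results of these data known. Of 49670 genes, 49411 matched GENCODE M21 on GRCm38 for symbol, position and exon length. Counts of all reads were fitted with edgeR 4.0.16 in R 4.3.3 (TMM, filterByExpr with a minimum count of 10, 1 mean per group over all 8 libraries, quasi-likelihood test). Benjamini-Hochberg adjustment ran over all 17839 genes tested, and an adjusted p under 0.05 was called. The common biological coefficient of variation was 24.6%. Shares of genome 1 were fitted on both genome counts with library terms, in 12476 genes with at least 20 genome reads in every library. The 329 genes whose genome reads exceeded all their reads in some library were left out. Shares of 1 library or pair have 95% Wilson intervals, and ratios of small counts have exact intervals and a floor of 3 counts over the pair. Intervals and floors cover counting error only.

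Genes named are the 7, all their receptors and binding partners, of each other list up to 4 called genes or else the 2 with the highest mean CPM, and the 3 genes most similar to each of the 7. For Vtcn1, 1 of the 3 is not reported here. Other lists were marker lists of fibroblast, kidney epithelium, leukocyte and endothelium. The alternatives were other scalings, no filter, DESeq2 1.42.0, only the groups compared, a replicate block, the chromosome median subtracted, another threshold, other read minima, and each library left out. The fits were tested on simulated counts. Whether replicate numbers pair the libraries was checked from the deviations within pairs. Python 3.11.15 with pandas 2.3.3, scipy 1.17.1 and matplotlib 3.10.9 was used for the rest.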

Additional observations from a re-analysis of the deposited data

Results flagged for a closer look

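Lgals9 and Cd274 differed between labels in the fit, which describes genes chosen with these comparisons known and supports nothing further. Lgals9 was lower under the Stc1 label than under the Pygo1 label (log2 -2.41) and higher under the Pygo1 label than under the Rlim label (1.69). For Cd274 the same comparisons gave -1.67 and 1.64. Both Cd274 calls ended without any 1 library of WT, Pygo1 or Rlim (edgeR, adjusted p = 0.0727 to 0.124 and 0.0913 to 0.478), and the Lgals9 difference between Pygo1 and Rlim ended without Rlim replicate 1 or 2 (0.124 or 0.115).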

How the results depend on the processing

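Of 845 alternative values for the log2 fold changes named, 707 kept their direction and side of the threshold, 89 lost the call, 36 gained one and 13 changed sign or came to 0, none of the last in a called result. These values pool called and uncalled results. Only a called result can lose its call, and the threshold of 0.1 cannot take one away, so the 707 do not measure how stable the calls were. The number of the 7 genes called was 3, 3, 2, 2, 0 and 2 for Stc1, Pygo1 and Rlim against WT, Stc1 against Pygo1, Stc1 against Rlim and Pygo1 against Rlim. With 1 library left out, a lone library is assumed to vary like the other groups, and the calls over all genes changed widely. Counts of the 7 genes in those fits are therefore not compared. With only the groups compared, the counts of the 7 genes were 0 for Stc1 against WT, 5 for Pygo1 against WT, 4 for Rlim against WT and 0 for Stc1 against Pygo1. In all, 0 of 16877, 1699 of 17039, 8340 of 17040 and 0 of 17112 genes were called there. Stc1 against Rlim gave 2 at an adjusted p under 0.1, 2 with no filter and 3 in DESeq2 (all genes: 308 of 17839, 333 of 29381 and 777 of 17305).

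Whether replicate numbers pair the libraries was not settled. The correlation of deviations for the same number was 0.395 for WT and Rlim, 0.188 for WT and Pygo1 and 0.176 for Pygo1 and Rlim. For Stc1 it was 0.01 with WT, -0.211 with Pygo1 and -0.014 with Rlim. With the number as a replicate block, 0 of the 7 genes were called for Stc1 against WT, 1 for Stc1 against Pygo1 and 1 for Pygo1 against Rlim (Cd274 was lost from both, edgeR, adjusted p = 0.0583 and 0.0801), and other pathway genes for Rlim against WT fell to 1. Over all genes tested, calls against WT went from 103, 419 and 250 to 18, 109 and 26.

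Other pathway genes called against WT (1, 3 and 2 for Stc1, Pygo1 and Rlim) were 2, 10 and 4 at an adjusted p under 0.1, 3, 6 and 5 with no filter, 4, 10 and 7 in DESeq2, and 0, 12 and 25 with only the groups compared. Over all genes, 333, 1168 and 803 of 17839 were called at an adjusted p under 0.1, and 361, 867 and 610 of 29381 with no filter. DESeq2 called 828, 1548 and 1255 of 17854 genes, and the counts with only the groups compared are those above. With 1 library left out the pathway counts ranged from 1 to 18, 1 to 19 and 0 to 11. With only the groups compared, the changed genome share of Cd274 for Pygo1 was no longer called, and that of Cd47 was called for Rlim. The share called over all genes in those fits is not reported here, so nothing is read from these calls about either gene.

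Signs turned with 1 library left out, or for Cd200 the value came to 0, over these ranges of log2 fold change. For Stc1 against WT, Cd47 ran from -0.051 to 0.92. For Stc1 against Pygo1, Tnfrsf9 ran from -0.58 to 0.50, Vtcn1 from -0.38 to 0.48, Icosl from -0.85 to 0.30 and Cd47 from -0.50 to 0.47. For Stc1 against Rlim, Vtcn1 ran from -0.64 to 0.17 and Cd47 from -0.18 to 0.79. For Pygo1 against Rlim, Vtcn1 ran from -0.66 to 0.057, and Cd200 from 0 to 4.70 on at most 3 reads. Subtracting the chromosome median gave 0.0062 for Cd274, Stc1 against Rlim. Log2 genome odds of Cd274 ran from -0.25 to 0.043 for Stc1 and from -0.27 to 0.43 for Rlim, and those of Cd47 for Stc1 from -0.0882 to 0.47. The cause of these changes was not tested. Each group had 2 libraries, and Cd200 and Vtcn1 had few WT reads, which limits the precision of their sizes.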
